A study of Mus musculus with 144 samples.

Results

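Spleens of nmrHAS2 mice were compared with spleens of CreER control mice at 6 months of age, across all genes. The comparison used 12 of the 144 libraries of the series: 3 of female nmrHAS2, 3 of female CreER, 3 of male nmrHAS2 and 3 of male CreER spleens, chosen by their labels for tissue, age, sex and genotype. The nmrHAS2 mice carry the hyaluronan synthase 2 gene of the naked mole-rat and the CreER recombinase that switches it on, and the control mice carry the CreER recombinase alone. Another 12 spleen libraries, from animals of 24 months, shared the fit and were used for a comparison between ages. The series asked how the tissues of nmrHAS2 mice differ from those of controls. The labels used here name no strain, promoter or drug schedule, and no animal behind a library.

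Hyaluronan is a long unbranched sugar polymer of the extracellular matrix, made at the cell membrane by hyaluronan synthases from UDP-glucuronic acid and UDP-N-acetylglucosamine. It is bound by receptors such as Cd44, Lyve1 and Stab2 and is cut by hyaluronidases. The spleen filters blood in its red pulp, where macrophages remove old red cells, and holds B cells, T cells and germinal centres in its white pulp. In mice it also makes red cells and granulocytes, and a thin capsule covered by mesothelium surrounds it.

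The female libraries held 59.5 M to 97.3 M counts (M, mega) and the male libraries 20.8 M to 26.5 M. Levels are in CPM (counts-per-million), in which 3 counts, the limit that a count of 0 allows, came to between 0.0308 and 0.145 over the 12 libraries. RNAs without a poly(A) tail took 16.6 to 20.3% of the counts in females and 0.000892 to 0.00327% in males, so sex and kind of library cannot be told apart. Both genotypes of a sex had the same kind. Every library held the cell types of a spleen: 14 B cell genes summed to 2410 to 5860 CPM, and 16 red pulp macrophage genes to 2820 to 4970 CPM. All 6 female spleens, of both genotypes, also held transcripts of the exocrine pancreas, an organ next to the spleen: 18 such genes summed to 11200 to 14700 CPM in the nmrHAS2 females, to between 12200 and 17300 CPM in the CreER females, and to 11.3 to 34.9 CPM in males. The library of female nmrHAS2 1 carried hepatocyte transcripts: 10 such genes summed to 134 CPM, against 2.03 to 22.2 CPM in the other 11 libraries, with albumin (Alb) at 68.2 CPM.

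One pair of libraries stood apart before any comparison was made. In a spleen the set of immunoglobulin V segments in use reflects the B cell and plasma cell clones of that animal. Over 177 V segments the libraries labelled female nmrHAS2 1 and female nmrHAS2 2 had a Pearson correlation of 0.994, while the other 11 pairs of the same group and age lay between 0.723 and 0.876. Among 276 pairs of spleen libraries only 2 exceeded 0.95, the other being a pair of male CreER spleens of 24 months. Over 11575 other genes the log2 levels of the female nmrHAS2 pair differed with an SD of 0.18, against 0.24 to 0.83 in the other pairs. Their counts differed with a mean chi-square of 47 per gene, more than sampling noise but the lowest of the 12 pairs (47 to 342). The labels give them as separate samples and they were kept so, but libraries prepared from 1 animal would also differ by more than sampling noise. Whether they come from 1 animal was not tested, and results are also given with each such pair summed to 1 library.

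**Figure D1:**
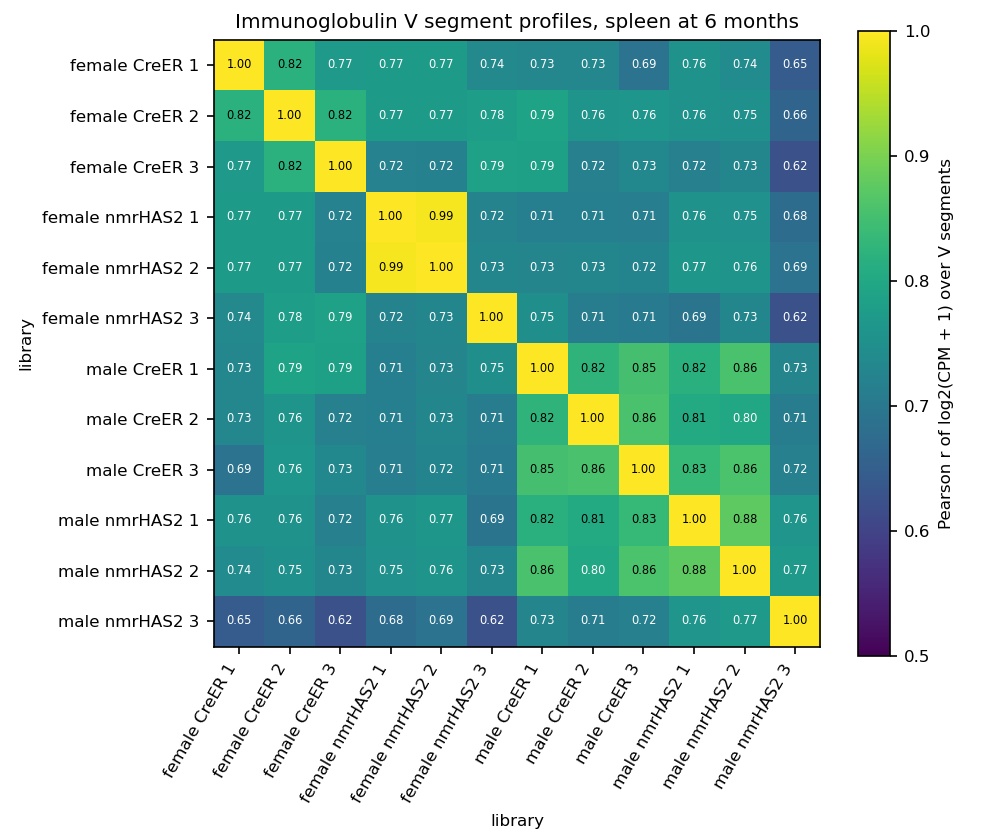
Pearson correlation of log2(CPM + 1) over 177 immunoglobulin V segments between the 12 spleen libraries of 6 months, each square giving 1 pair of libraries. Female nmrHAS2 1 and 2 share 0.99, and the other pairs within a group lie between 0.72 and 0.88.

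The transgene transcript, listed as NMR_HAS2, was the only gene that passed the test. Female nmrHAS2 spleens held 247, 237 and 380 transgene counts and female CreER spleens 26, 20 and 19. Male nmrHAS2 spleens held 15, 33 and 21 counts and male CreER spleens 4, 3 and 2. Every nmrHAS2 library lay above every CreER library of its sex, and every CreER library still held a few counts. Scaled by trimmed means (TMM), this was 2.56 ± 1.76 CPM in nmrHAS2 against 0.204 ± 0.0981 CPM in CreER (SD, n = 6 each). The transgene rose by 3.44 ± 0.49 on the log2 scale (± SE, edgeR quasi-likelihood test, Benjamini-Hochberg adjusted p = 0.0172, higher in 6 of 6 libraries). By sex the log2 difference was 3.87 ± 0.62 in females (adjusted p = 0.0879) and 3.02 ± 0.78 in males (adjusted p = 0.121), and the difference between the sexes was 0.85 ± 1.05. With the like pairs summed the value was 3.48 and its adjusted p was 0.0676. The call was also lost without female CreER 1, 2 or 3, female nmrHAS2 3, male CreER 1 or 3, or male nmrHAS2 3. Leaving out each of the 12 libraries in turn gave 3.31 to 3.61, with adjusted p between 0.0234 and 0.167.

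Mouse Has2, the animals' own hyaluronan synthase 2 gene, stood at 1.61, 1.33 and 1.56 CPM in female nmrHAS2 and 1.43, 1.4 and 1.51 CPM in female CreER spleens. In males it was 1.3, 1.21 and 1.2 CPM in nmrHAS2 and 1.21, 1.5 and 1.55 CPM in CreER. The genotypes overlapped in both sexes, and the log2 difference was -0.07 ± 0.24 (adjusted p = 0.928). Because the mouse and naked mole-rat genes are alike in sequence, reads can be split between them, so both values are uncertain. In the other 5 tissues at 6 months, given without a test on log2(CPM + 0.5), the transgene differed by 7.31 in muscle, 4.13 in kidney, 3.68 in intestine, 1.58 in white fat and 0.51 in liver, against 1.96 in spleen. Has2 on the same scale differed by 3.43 in muscle, 1.89 in kidney, 0.86 in intestine, -0.08 in white fat, 0.07 in liver and -0.01 in spleen.

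**Figure D2:**
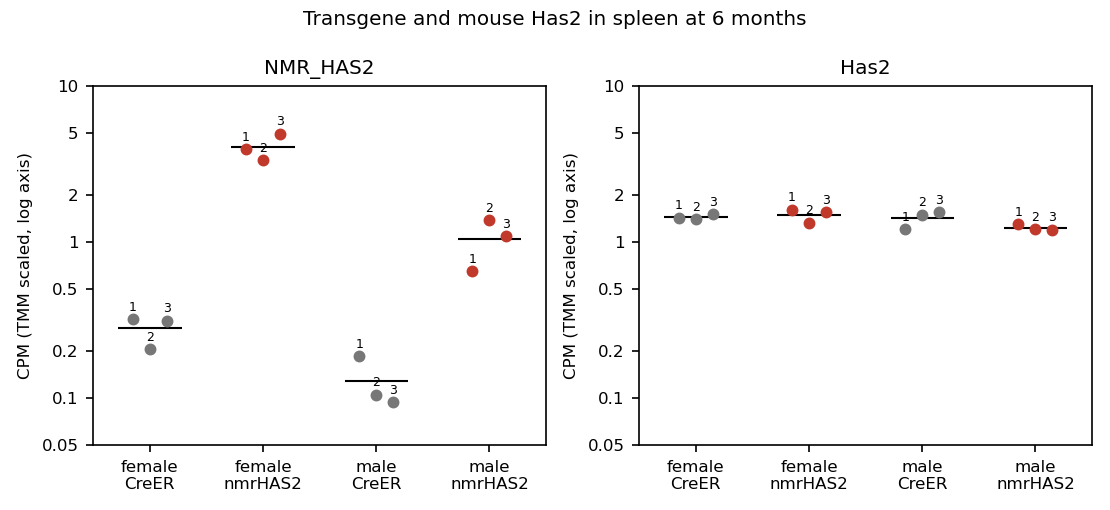
CPM (TMM scaled, log axis) of the transgene NMR_HAS2 and of mouse Has2 in each of the 12 spleens, with the replicate number beside each point and a line at the group mean. The transgene is higher in all 6 nmrHAS2 libraries than in the CreER libraries of their sex, and Has2 stays between 1.2 and 1.61 CPM throughout.

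Across 20851 genes tested, 1 gene, the transgene, was called higher in nmrHAS2 (0.0048% of the genes) and 0 were called lower (0%) by the edgeR quasi-likelihood test at an adjusted p under 0.05. At an unadjusted p under 0.05 stood 1553 genes with a positive difference (7.45%) and 1108 with a negative one (5.31%). DESeq2 on the same counts called 52 genes higher (0.249%) and 21 lower (0.101%). In 166 genes (0.796%) every nmrHAS2 library lay above every CreER library of its sex in both sexes, and in 164 genes (0.787%) every one lay below. Positive differences made up 52.7% of all genes, and the median log2 difference over all genes was 0.02. With the like pairs summed, 0 genes were called in either direction, with 1790 at an unadjusted p under 0.05. Leaving out 1 library gave 6 genes higher without male CreER 2, 5 without male nmrHAS2 2, and 3 higher and 1 lower without male nmrHAS2 1. The genes described next did not pass the edgeR test unless it is said that they did, and their values are given as differences between these libraries.

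The 12 genes of smallest p with a positive difference (same sign in females and males, mean level 2 CPM or more) had log2 differences of 0.50 to 2.22 and adjusted p of 0.237 to 0.279 (edgeR). DESeq2 called all 12, against 0.249% of all genes, on the same counts by which they were chosen. With the like pairs summed, edgeR called 0 of them, the lowest adjusted p being 0.335. Several make or shape matrix outside the cell. Fndc1, a secreted protein with fibronectin domains, was at 3.94, 3.10 and 3.59 CPM in female nmrHAS2 against 2.06, 2.15 and 2.76 CPM in female CreER spleens. In male spleens Fndc1 was at 5.5, 1.08 and 2.03 CPM against 0.371, 0.384 and 0.517 CPM. The groups did not overlap in either sex, and the log2 difference was 1.69 ± 0.33.

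Aebp1, a secreted protein that binds collagen, was at 21.8, 19.4 and 21.7 CPM in female nmrHAS2 against 17.8, 14.8 and 18.7 CPM in female CreER spleens. The male values were 36.4, 10.6 and 15.8 CPM against 5.98, 6.99 and 5.82 CPM, again without overlap (log2 difference 1.02 ± 0.21). Prg4 encodes lubricin, a mucin-like lubricant of joints and of mesothelial surfaces. It was at 5.97, 5.16 and 3.91 CPM against 2.11, 0.911 and 0.993 CPM in females and at 30.0, 4.25 and 12.9 CPM against 0.696, 4.05 and 3.29 CPM in males. In both sexes the lowest nmrHAS2 library was above the highest CreER library, in males by a small margin, and the log2 difference was 2.22 ± 0.51.

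Adamtsl1, a matrix protein related to the ADAMTS proteases but without their catalytic part, differed mainly in males. There it was at 2.42, 0.793 and 1.15 CPM in nmrHAS2 against 0.186, 0.244 and 0.141 CPM in CreER, the latter being 4, 7 and 3 counts. In females the genotypes overlapped, at 4.47, 3.54 and 5.49 against 4.75, 3.43 and 3.61 CPM, and the log2 difference over both sexes was 1.55 ± 0.29. Adgrd1, an adhesion G protein-coupled receptor, had a like pattern: 17.4, 5.42 and 7.35 against 2.23, 1.82 and 2.35 CPM in males, and 6.19, 5.06 and 6.55 against 5.80, 4.36 and 5.13 CPM in females (log2 difference 1.23 ± 0.26). Myrf, a membrane-bound transcription factor, differed by 1.88 ± 0.41 and stood apart in both sexes. P-cadherin (Cdh3), an adhesion molecule of epithelia, differed by 0.96 ± 0.21.

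The remaining genes of this direction were not highest in male nmrHAS2 1. Zc3hav1l was at 3.11, 3.19 and 2.27 against 1.46, 1.8 and 1.89 CPM in females and at 5.58, 6.05 and 6.67 against 2.27, 4.40 and 2.35 CPM in males (log2 difference 0.87 ± 0.17), without overlap in either sex. Ctnnd1 (p120-catenin, which holds cadherins at the membrane) differed by 0.50 ± 0.11. Slc35d1, a transporter of nucleotide sugars into the endoplasmic reticulum, differed by 0.61 ± 0.13, close to equally in females (0.62 ± 0.19) and males (0.60 ± 0.19). Ror1, a receptor for Wnt5a, and Slc7a1, a transporter of cationic amino acids, differed by 0.63 ± 0.15 and 0.64 ± 0.15.

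In 7 of these 12 genes the highest of the male nmrHAS2 libraries was male nmrHAS2 1, and that library also had the highest level of mesothelin (Msln), a marker of the mesothelium that covers the spleen. A list of 15 mesothelial genes, chosen after these values were seen and so given without a test, summed to 238, 87.7 and 293 CPM in male nmrHAS2 against 74.9, 61.0 and 47.5 CPM in male CreER spleens. In females the sums were 223, 196 and 135 against 166, 103 and 114 CPM. Msln itself was at 26.5, 2.67 and 9.75 CPM in male nmrHAS2 and at 0.325, 2.51 and 4.46 CPM in male CreER, and at 7.74, 6.19 and 11.7 against 15.7, 9.37 and 7.78 CPM in females. All 15 members had a positive difference in males (median 2.31), and 8 of 15 in females (median 0.02). Without male nmrHAS2 1 the 12 genes differed by 0.53 to 1.78, still positive, and the median of the mesothelial list over both sexes went from 1.17 to 0.49. The part of mesothelial RNA in these differences was not tested.

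The 12 genes of smallest p with a negative difference had log2 differences of -0.93 to -0.39 and adjusted p of 0.237 to 0.279 (edgeR). DESeq2 called 9 of them, against 0.101% of all genes, on the same counts by which they were chosen. With the like pairs summed, edgeR called 0 of these 12 (lowest adjusted p 0.591). Some belong to lymphocytes and antibody-secreting cells. Cxcr3, the receptor by which effector T cells and NK cells follow Cxcl9 and Cxcl10, was at 19.5, 11.5 and 11.7 CPM in male nmrHAS2 against 28.7, 48.3 and 41.2 CPM in male CreER spleens. In females it was at 17.5, 13.2 and 22.2 against 17.6, 23.7 and 20.2 CPM, which overlapped (log2 difference over both sexes -0.84 ± 0.20). Fkbp11, a peptidyl-prolyl isomerase of secretory cells, was at 3.25, 2.21 and 2.92 against 7.70, 9.71 and 9.35 CPM in males and at 5.04, 4.55 and 5.85 against 5.04, 5.56 and 6.12 CPM in females (log2 difference -0.90 ± 0.21). Ada, adenosine deaminase, differed by -0.60 ± 0.15.

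The others are of mixed function. Dbp, a transcription factor whose level follows the daily clock, was at 5.57, 5.38 and 8.4 against 7.29, 8.53 and 11.1 CPM in females and at 8.09, 6.63 and 5.99 against 15.4, 12.5 and 22.9 CPM in males (log2 difference -0.88 ± 0.22). The time of day of tissue collection is not given in the labels used here. Insl6, of the insulin-like family, differed by -0.93 ± 0.19, Rab19, a small GTPase, by -0.51 ± 0.12, and Myl4, a myosin light chain, by -0.69 ± 0.18. Ankrd55 differed by -0.90 ± 0.22 and Nudt14, which cleaves UDP-glucose, by -0.45 ± 0.11. Only Pgls (-0.39 ± 0.10), an enzyme of the pentose phosphate pathway, Rnaset2a (-0.47 ± 0.12) and Cyb561d2 (-0.44 ± 0.11) of these 12 kept the genotypes apart in both sexes. Rnaset2a has a near-identical copy, so its counts are uncertain.

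**Figure D3:**
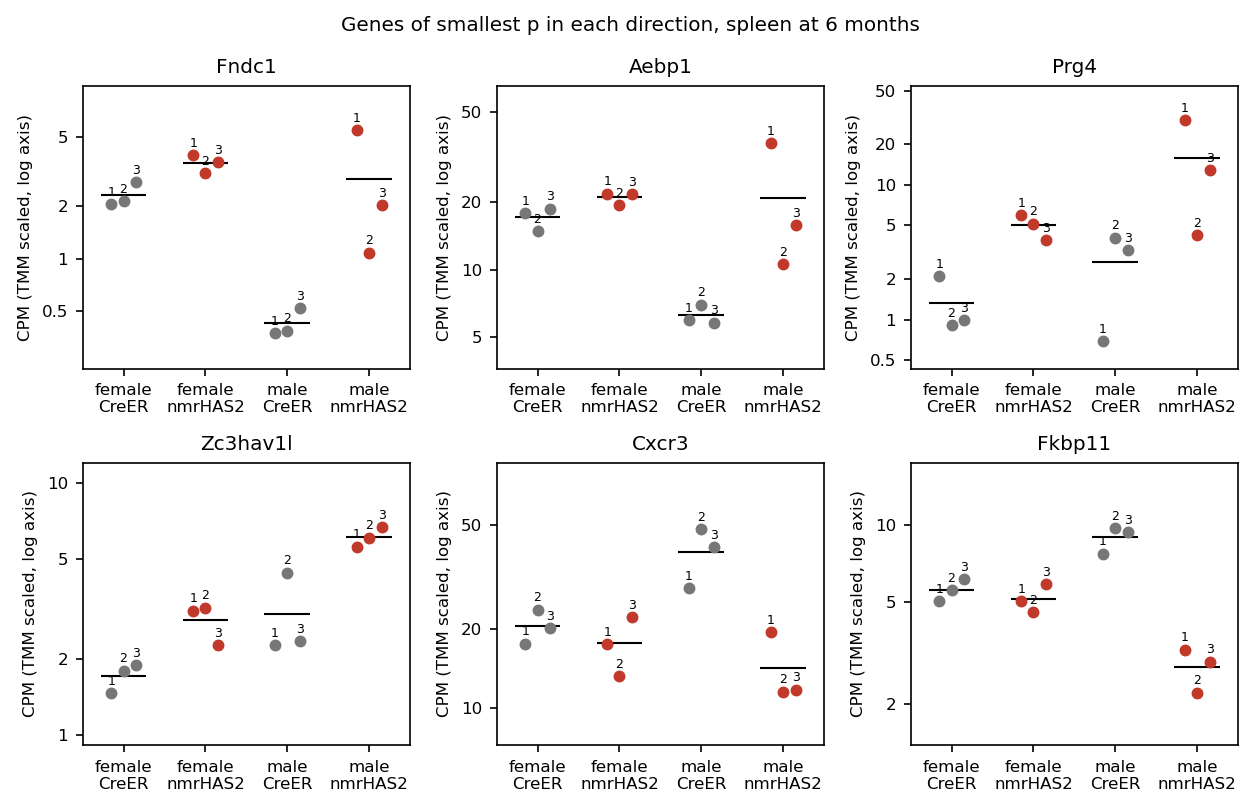
CPM (TMM scaled, log axis) of 6 of the genes with the smallest p, in each of the 12 spleens, with the replicate number beside each point and a line at the group mean. Fndc1, Aebp1, Prg4 and Zc3hav1l are higher in nmrHAS2 in both sexes, with male nmrHAS2 1 far above its group in the first 3, and Cxcr3 and Fkbp11 are lower in males and overlap in females.

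The differences were larger in males than in females for 11 of the 12 genes with positive and 12 of the 12 with negative differences, with median sizes of 0.30 and 0.20 on the log2 scale in females against 1.76 and 1.15 in males. The genes were chosen for their small p over both sexes, and in males all 12 of each direction stood apart from every CreER library. The share of all genes apart in males alone was not computed, and the choice by small p favours such genes. This count is therefore no result about these genes. As contrasts of the same fit, which pools the spread over all groups, females gave 0 genes higher (0%) and 0 lower (0%) by edgeR. At an unadjusted p under 0.05 females had 869 genes, 791 positive and 78 negative, and 447 with the like pairs summed. Males gave 3 genes higher (0.0144%) and 1 lower (0.0048%). At an unadjusted p under 0.05 males had 2960 genes, 1678 positive and 1282 negative, and 2817 with the like pairs summed. Higher in males were Adamtsl1 (2.89 ± 0.47, adjusted p = 0.0393), Adgrd1 (2.24 ± 0.38, adjusted p = 0.0466) and Fam129b (1.02 ± 0.16, adjusted p = 0.0393), a phosphoprotein at cell junctions. Lower was Unc13a (-1.77 ± 0.29, adjusted p = 0.0393), a protein of vesicle release that stood at 7, 10 and 5 counts in nmrHAS2 against 24, 33 and 24 in CreER. With the like pairs summed, males gave 0 genes in either direction. The median SE of a gene was 0.28 in females and 0.30 in males, but the pooled spread behind both is not that of each sex.

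The difference between the sexes was tested for itself and passed for 0 of 20851 genes (0%) with edgeR, with 1154 at an unadjusted p under 0.05, while DESeq2 called 24. Without male nmrHAS2 2, edgeR called 2. Smallest in p was Wnt2b, a Wnt ligand (adjusted p = 0.33). It held 0, 0 and 2 counts in male CreER against 41, 8 and 14 in male nmrHAS2 spleens, so no fold is given, and in females it was at 1.52, 1.4 and 2.24 against 4.11, 2.24 and 2.48 CPM. Adamtsl1 (-2.70 ± 0.58), Fam129b (-1.04 ± 0.22), Unc13a (1.85 ± 0.37) and Lbx2, a homeobox factor, followed, with edgeR adjusted p of 0.574 to 0.689. Lbx2 held 5, 3 and 2 counts in male nmrHAS2 against 13, 12 and 18 in male CreER spleens, so no fold is given. Since females and males also differ in the kind of library, a difference between sexes and one between kinds cannot be told apart.

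**Figure D4:**
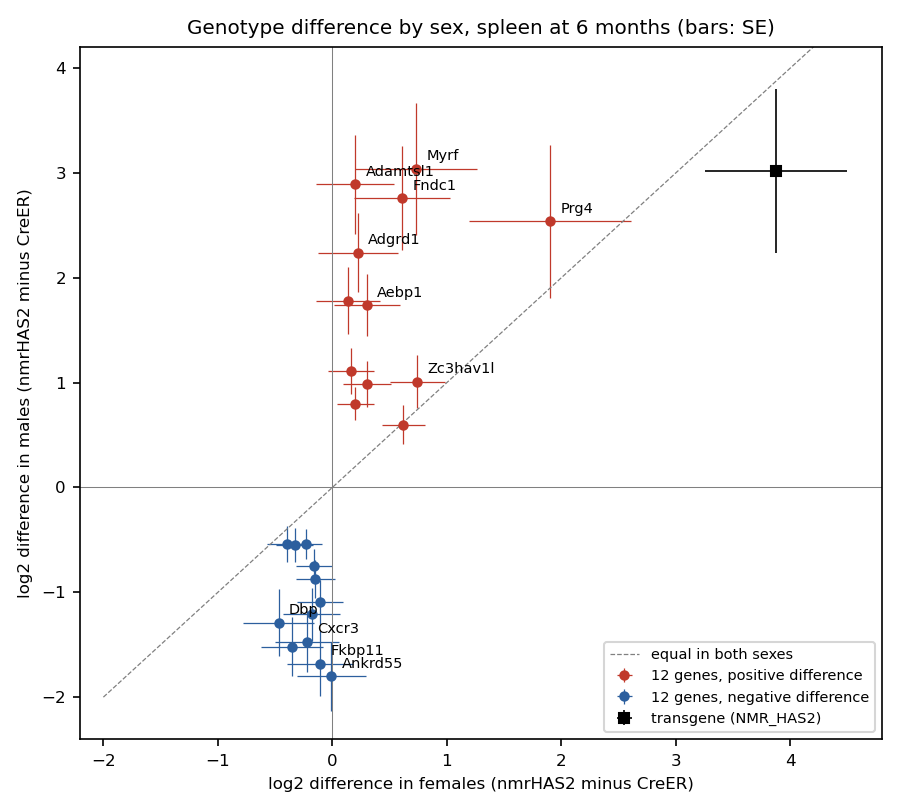
Log2 difference between genotypes (nmrHAS2 minus CreER, ± SE) in females on the horizontal and in males on the vertical axis, for the 12 genes of smallest p in each direction and the transgene. All but Slc35d1 among the 24 genes lie farther from 0 in males than in females, while the transgene is at 3.87 in females and 3.02 in males.

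Lists of genes for 41 cell types and pathways held 704 tested genes, of which 0 were called by edgeR. Of the list medians, 21 were positive and 19 negative, 30 were larger in size in males than in females, and 20 had the same sign in both sexes. For 0 lists did the medians by library separate the genotypes in both sexes, while they did so for 8 lists in males and 2 in females. In a bulk sample fewer cells of a type and less RNA per cell cannot be told apart.

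Genes of lymphocytes had mostly negative differences. All 18 T cell genes (median -0.32), all 13 NK cell genes (-0.44) and 12 of 14 B cell genes (-0.33) were on that side, against -0.17 and 0.26 for the lower and upper quartile of all genes. Few were at an unadjusted p under 0.05: 1 T cell, 1 NK cell and 0 B cell genes, which is near the background of 5.31%. Cd3g, a chain of the T cell receptor complex, was at 79.0, 44.1 and 34.5 CPM in male nmrHAS2 against 94.8, 84.7 and 96.5 CPM in male CreER spleens, and at 32.7, 32.1 and 47.0 against 37.3, 59.3 and 43.3 CPM in females (-0.57 ± 0.19, adjusted p = 0.316). Nkg7, of cytotoxic granules, differed by -0.55 ± 0.19, and Cd79b, the signalling chain of the B cell receptor, by -0.50 ± 0.26. In males the T cell medians by library were 0.05, -0.52 and -1.08 against 0.16, -0.03 and -0.19 in CreER, so 1 library was level with the controls.

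Lists of activated lymphocytes and antibody-secreting cells had medians farther from 0 in males than in females, a difference that was not tested. Of 17 genes of regulatory and effector T cells, 16 had a negative difference and 6 of these were at an unadjusted p under 0.05, against 5.31% of all genes (median -0.56; females -0.01, males -0.95). Tnfrsf18 (GITR, of regulatory and activated T cells) was at 11.1, 9.55 and 6.93 against 16.7, 15.3 and 20.7 CPM in males and at 12.5, 9.67 and 15.6 against 13, 16.7 and 15.8 CPM in females (-0.60 ± 0.16). Il21, the cytokine of follicular helper T cells, was at 1.08, 0.334 and 0.208 against 1.90, 6.67 and 4.37 CPM in males and overlapped in females (-1.49 ± 0.43). The 10 germinal centre genes had a median of -0.54 (females -0.03, males -1.02), with 1 of them lower at an unadjusted p under 0.05. Plasma cell genes, 11 of 12 with a negative difference and 4 at an unadjusted p under 0.05 against 5.31% of all genes, had a median of -0.39 (females -0.12, males -0.71), including Jchain, which joins IgM and IgA units (-0.59 ± 0.26). Mzb1, a chaperone of marginal zone B cells and plasma cells, differed by -0.73 ± 0.22 (females -0.10, males -1.36). In males these 3 lists and that of marginal zone B cells lay below every CreER library in all 3 nmrHAS2 libraries, and in females they overlapped.

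Antigen presentation had 19 of 19 genes with a negative difference, 8 of them at an unadjusted p under 0.05 against 5.31% of all genes (median -0.40; females -0.20, males -0.58). Psmb9, a subunit of the immunoproteasome, was at 64.2, 45.6 and 43.0 against 86.2, 89.8 and 134 CPM in males and at 63.5, 56.6 and 65.7 against 74.6, 83.4 and 67.6 CPM in females, apart in both sexes (-0.65 ± 0.19, adjusted p = 0.294). Its partner Psmb8 differed by -0.56 ± 0.18 and B2m, the light chain of MHC class I, by -0.43 ± 0.15. These genes are expressed in lymphocytes, whose own lists differed in the same direction, and the part of cell composition was not tested.

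The 29 interferon genes and the 28 inflammatory and NF-kB genes each had a median of -0.10. At an unadjusted p under 0.05, 6 of the interferon and 5 of the inflammatory genes had a negative difference, against 5.31% of all genes, and 0 and 1 a positive one, against 7.45%. Among them Cxcl9, the ligand of Cxcr3 induced by interferon gamma, was at 47.6, 26.2 and 22.5 against 50.7, 106 and 165 CPM in males and at 27.0, 29.5 and 25.5 against 29.4, 30.9 and 35.5 CPM in females (-0.98 ± 0.34). Gbp2, a guanylate-binding protein, differed by -0.59 ± 0.22, Tnf by -0.64 ± 0.21 and Casp1, the caspase of inflammasomes, by -0.51 ± 0.16. Arg1, the arginase of alternatively activated macrophages, went the other way. It was at 1.47, 0.382 and 0.521 against 0.235, 0.164 and 0.149 CPM in females and at 1.82, 0.292 and 1.41 against 0.232, 0.175 and 0.141 CPM in males (2.38 ± 0.54, adjusted p = 0.279), without overlap in either sex but at 3 to 19 counts in CreER libraries. DESeq2 called it (adjusted p = 0.00442). Arg1 is also abundant in liver, and hepatocyte transcripts were highest in female nmrHAS2 1. In males the hepatocyte sums were 17.9, 4.34 and 12.1 CPM against 3.20, 2.03 and 15.4 CPM. Of these, Cyp2e1 alone was at 16.2, 3.21 and 11.7 against 0.371, 0.384 and 13.9 CPM. In males Alb was at 0.606, 0.375 and 0.0521 against 0.835, 0.349 and 0.235 CPM, and Fgb at 0 to 0.0866 CPM. The part of liver RNA in the Arg1 values was not tested.

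Myeloid cells showed no common direction. Red pulp macrophage genes had 5 positive and 11 negative differences (median -0.11), with C1qc, of the first complement component, at -0.26 ± 0.23. Monocyte genes had a median of 0.04, but Fn1, fibronectin, which monocytes and stromal cells make, was at 123, 95.7 and 70.3 against 75.9, 57.7 and 75.6 CPM in females and at 56.4, 58.9 and 63.6 against 37.2, 34.2 and 18.4 CPM in males (0.73 ± 0.29). The complement receptors C5ar1 (0.68 ± 0.34) and C3ar1 (0.92 ± 0.52) had every nmrHAS2 library above every CreER library of its sex. All 17 neutrophil genes had a positive difference (median 0.31), 0 of them at an unadjusted p under 0.05. By library the neutrophil medians were -1.14, -0.24 and 1.84 in male nmrHAS2, and without male nmrHAS2 3 the median of this list was -0.36. Csf3r, the receptor for granulocyte colony-stimulating factor, differed by 0.30 ± 0.19 and Mpo, myeloperoxidase, by 0.66 ± 0.65.

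Red cell and proliferation genes had positive medians with a spread as large as the difference. Of 26 erythroid genes 24 had a positive difference (median 1.0), 0 at an unadjusted p under 0.05, and the SD between libraries of a group was 1.39. The medians by library, relative to CreER of the same sex, were 1.30, 1.44 and -1.88 in female nmrHAS2 and -0.45, 1.24 and 2.49 in male nmrHAS2, and 0.60, -0.83 and 0.22 in female and 1.23, -0.04 and -1.19 in male CreER. The genotypes thus overlapped in both sexes, and both high female nmrHAS2 values come from the pair with like V segments. Sptb and Ank1, of the red cell membrane skeleton, differed by 1.46 ± 0.71 and 1.51 ± 0.74, and Steap3 and Cpox, of iron handling and heme synthesis, by 1.35 ± 0.55 and 1.27 ± 0.57. All 30 proliferation genes had a positive difference (median 0.66, SD between libraries 0.87), 6 at an unadjusted p under 0.05, against 7.45% of all genes. E2f8, a repressor of the cell cycle programme, was at 34.8, 39.8 and 6.29 against 12.8, 7.74 and 16.5 CPM in females and at 10.7, 42.1 and 124 against 31.2, 19.3 and 6.76 CPM in males, and E2f1 differed by 0.71 ± 0.30. Leaving out each library in turn moved the erythroid median from 0.50 to 1.41 and that of proliferation from 0.28 to 0.89. T cell medians were below 0 and erythroid medians above 1 in male nmrHAS2 2 and 3 and in female nmrHAS2 1 and 2. The male CreER libraries did not follow this, with T cell medians of 0.16, -0.03 and -0.19 beside the erythroid medians given above. In female CreER libraries the T cell medians were -0.44, 0.30 and 0.10. B cell medians were -0.03, -0.42 and -0.97 in male nmrHAS2 and -0.20, 0.02 and 0.20 in male CreER libraries. In both male groups their order was opposite to that of the erythroid medians. In female CreER libraries the B cell medians were 0.04, 0.16 and -0.21, the highest where the erythroid median was lowest. B cell medians did not run opposite to erythroid medians in female nmrHAS2 libraries. There nmrHAS2 3, with the lowest erythroid median, also had the lowest B cell median (-0.25, against -0.17 and -0.21). How much of either follows from the other was not tested.

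Collagen and matrix genes had 27 of 28 positive differences, 11 of them at an unadjusted p under 0.05 against 7.45% of all genes (median 0.36). The median was 0.67 in males and -0.00 in females. By library it was 0.84, 0.47 and 0.69 in male nmrHAS2 against 0.04, 0.16 and -0.15 in male CreER, and within 0.09 of 0 in all 6 female libraries. Col4a1, of basement membranes, was at 61.4, 78.0 and 63.6 against 39.2, 32.6 and 28.4 CPM in males and at 113, 119 and 100 against 112, 98.9 and 118 CPM in females (0.52 ± 0.14, adjusted p = 0.294). Fbn1, fibrillin, differed by 0.50 ± 0.14 (males 0.89, females 0.12) and Col6a2 by 0.79 ± 0.22 (males 1.38, females 0.19). The summed mesothelial level given above was also higher in 3 of 3 male nmrHAS2 libraries than in every male CreER library. The mesothelial medians by library overlapped in males, at 4.01, 0.75 and 2.46 in nmrHAS2 against -1.27, 0.28 and 1.19 in CreER, and the part of capsule in the matrix list was not tested. Adipocyte genes, of fat at the hilum, summed to 403, 77.2 and 221 CPM in male nmrHAS2 against 47.6, 46.9 and 151 CPM in male CreER, with Plin1, of fat droplets, at 1.34 ± 0.53 over both sexes and -0.45 in females.

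Among other stromal genes Lum, a collagen-binding proteoglycan, was at 3.82, 3.02 and 4.34 against 2.85, 2.30 and 2.32 CPM in females and at 11.1, 2.13 and 6.51 against 2.18, 1.26 and 2.49 CPM in males, where the genotypes overlapped (1.16 ± 0.36). Wt1, a transcription factor of splenic mesothelium and stroma, differed by 0.61 ± 0.19. Ccl19, the chemokine by which reticular cells hold T cells in the white pulp, was at 73.2, 65.0 and 73.9 against 83.2, 95.2 and 75.7 CPM in females and at 117, 70.3 and 68.5 against 161, 128 and 195 CPM in males, apart in both sexes (-0.59 ± 0.19, adjusted p = 0.295). Madcam1, of marginal sinus lining cells, differed by -0.61 ± 0.23 and Flt1, a VEGF receptor, by 0.39 ± 0.13. The whole stromal list of 20 genes was divided, 11 positive and 9 negative.

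The medians of genes that handle hyaluronan were near 0. The 9 genes of its synthesis had a median of 0.01 and the 25 tested genes of binding and breakdown of 0.06 (females 0.00, males 0.08), and 2 of the 9 (1 in each direction) and 3 of the 25 (2 higher, 1 lower) were at an unadjusted p under 0.05, against 7.45% higher and 5.31% lower of all genes. Has1, another hyaluronan synthase, held 31, 7 and 5 counts in male nmrHAS2 against 0, 3 and 1 in male CreER and 27, 19 and 33 against 38, 30 and 9 in females (edgeR adjusted p = 0.321). No fold is given for it, since male CreER spleens are at the limit of 3 counts. Gnpnat1, of UDP-N-acetylglucosamine synthesis, differed by -0.33 ± 0.14. Stab1, a scavenger receptor of sinus endothelium, was at 39.3, 37.5 and 32.7 against 31.3, 30.4 and 29.9 CPM in females and at 25.2, 20.6 and 20.6 against 14.1, 17.0 and 11.8 CPM in males, apart in both sexes (0.44 ± 0.16, adjusted p = 0.327). Lyve1, which binds hyaluronan on sinus and lymphatic endothelium, was at 8.27, 2.88 and 3.34 against 0.418, 0.838 and 1.32 CPM in males and at 2.55, 1.29 and 5.29 against 2.73, 2.56 and 3.86 CPM in females (1.25 ± 0.48).

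Of 15 heat shock genes 14 had a positive difference, against 52.7% of all genes, and 7 were at an unadjusted p under 0.05, against 7.45%, with a median of 1.0 in males and -0.26 in females. By library the medians overlapped in males, at 1.59, 0.69 and 0.45 in nmrHAS2 against -0.10, 0.47 and -0.49 in CreER, and a difference of the list between sexes was not tested. Hspa4l, a chaperone of the Hsp110 class, was at 98.0, 103 and 106 against 48.8, 57.5 and 28.5 CPM in males and at 51.4, 56.7 and 40.2 against 48.4, 43.2 and 39.2 CPM in females (0.68 ± 0.17, adjusted p = 0.279). Bag3, a co-chaperone, was apart in both sexes (0.78 ± 0.19). Hspa1a, an inducible Hsp70 with a near-identical copy next to it, was at 64.9, 4.63 and 2.24 against 1.16, 1.64 and 0.752 CPM in males, and its log2 difference of 2.04 ± 0.62 was 0.64 without male nmrHAS2 1, the library with the highest heat shock median (1.59). All 35 cytosolic ribosomal protein genes had a negative difference (median -0.31; females -0.20, males -0.39), 10 of them at an unadjusted p under 0.05 against 5.31% of all genes. Rps15 was at 459, 400 and 493 against 554, 573 and 530 CPM in females and at 871, 667 and 803 against 1080, 895 and 1200 CPM in males, apart in both sexes (-0.37 ± 0.13, adjusted p = 0.317), and Rpl13 differed by -0.34 ± 0.13. Many ribosomal protein genes have processed copies in the genome, so single values are uncertain.

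**Figure D5:**
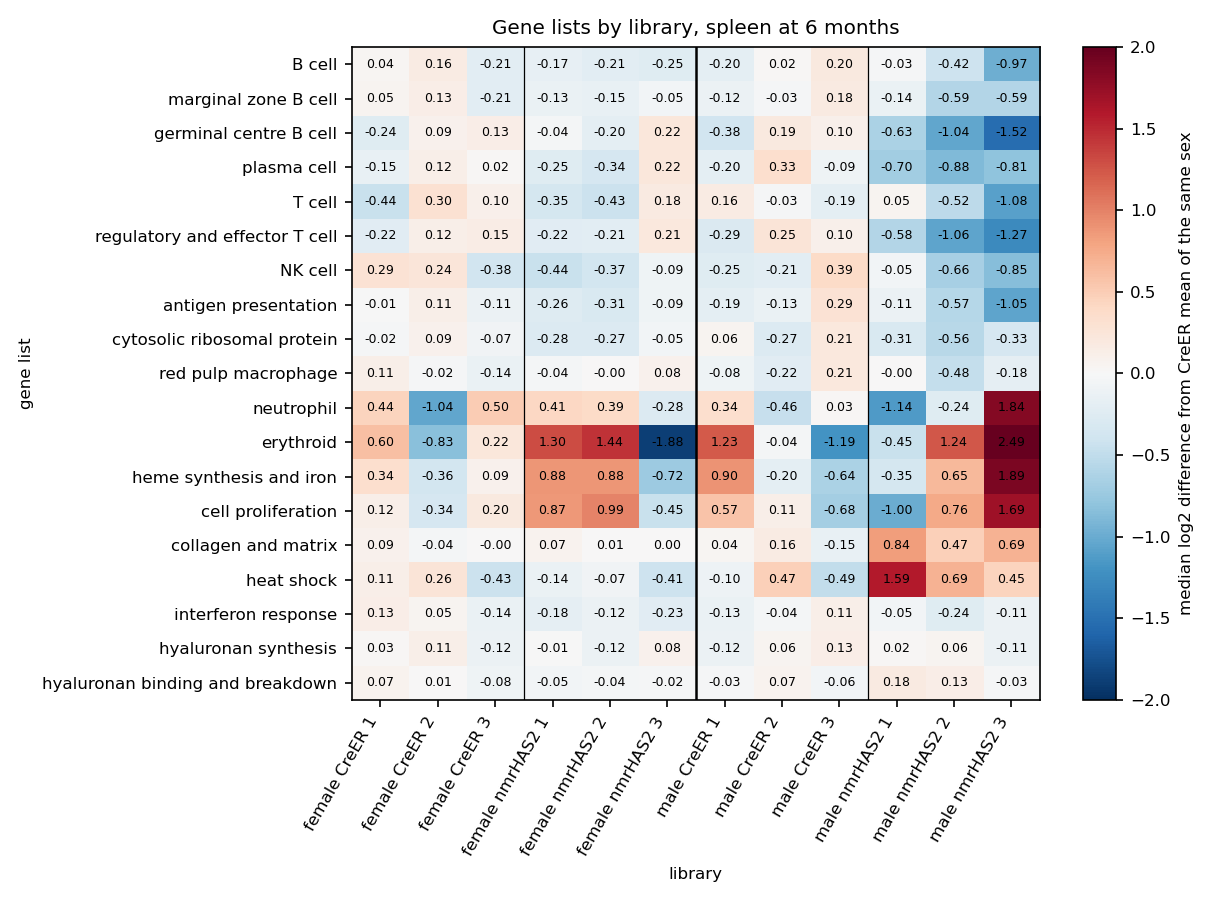
Median log2 difference of each gene list in each of the 12 spleens from the mean of the CreER libraries of its sex, with the value printed in each square and colour capped at 2 and -2. Erythroid and proliferation lists vary within every group, from -1.88 to 2.49 for the erythroid list, while collagen and matrix genes are level in females and above CreER in all 3 male nmrHAS2 libraries.

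The effect of genotype at 6 months was tested against that at 24 months and differed for 0 genes (0%) with edgeR, with 845 at an unadjusted p under 0.05, while DESeq2 called 36. Leaving out 1 library gave 12 genes without old male CreER 2, 2 without old male nmrHAS2 1 or young male CreER 3, 1 without old female nmrHAS2 1 or 2, and 0 without any other. The transgene was 2.42 ± 0.65 larger in its log2 difference at 6 than at 24 months (adjusted p = 0.561). At 24 months the library labelled female CreER 2 held 2.01 CPM of it, above 2 of the 3 old female nmrHAS2 libraries (4.32, 1.30 and 1.34 CPM). The library labelled male nmrHAS2 3 held 0.394 CPM, against 0.635, 0.442 and 0.453 CPM in old male CreER. These were 10 counts against 14, 11 and 10, too few to tell apart. The age comparison therefore rests on labels that the transgene goes against in female CreER 2 and does not bear out in male nmrHAS2 3. Fndc1 had the smallest p (6 minus 24 months 2.15 ± 0.45, adjusted p = 0.323), with a log2 difference of -0.46 ± 0.31 between old genotypes. The mesothelial list went from 15 of 15 members higher (median 1.17) at 6 months to 13 of 15 lower (median -0.37) at 24 months, and the adipocyte median from 0.97 to -1.35, and their part in these values was not tested. Adgrd1 (1.55 ± 0.36), Myrf (2.45 ± 0.58) and Myl4 (-1.08 ± 0.25) followed at an adjusted p of 0.448, as did Lhx9, a homeobox factor with 0, 3 and 3 counts in young male CreER spleens, for which no fold is given. Of the 12 genes with positive differences at 6 months 6 had the same sign at 24 months, and of the 12 with negative ones 7. Of the 41 list medians, 23 had the same sign at both ages. At 24 months the medians were 0.07 for collagen and matrix, 0.32 for erythroid, -0.86 for germinal centre, -0.15 for regulatory and effector T cell, -0.09 for B cell, -0.15 for antigen presentation and -0.17 for ribosomal protein genes, and of the other sign than at 6 months for T cell (0.21), NK cell (0.17) and plasma cell genes (0.32).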

How the data were processed

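The data are bulk RNA sequencing of frozen mouse tissue, from which total RNA was extracted with Trizol, digested with DNase and column purified, per the labels. The submitters' processing notes name Trim Galore 0.6.5 and Salmon 1.4.0. The authors deposited expected counts for each gene, and these were rounded to integers before testing. For the genome build and annotation used in counting, no statement was given in the sources used here. The table holds 40946 genes and 144 samples, with 0 columns of no sample. The labels do not say which animal each library came from, so the spread behind each p-value is that between libraries and may be technical.

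The 24 spleen libraries were fitted together with edgeR 4.0.16 in R 4.3.3, as 8 group means of age, sex and genotype, with TMM scaling, filterByExpr and the quasi-likelihood F test. Genotype at 6 months was the mean of the female and male contrasts. The fit pools the spread over all groups. P-values are 2-sided, adjusted by Benjamini and Hochberg over all 20851 genes, with a threshold of 0.05. The SE is the size of the log2 difference divided by the square root of F. List medians by library use log2 CPM with a prior count of 2. On simulated counts for 20470 genes at these depths, the test called 84% of 100 genes changed 2-fold and 94% of 100 changed 4-fold. These shares hold for the simulated counts only, since an adjusted p also depends on how many genes change and on how libraries vary. In the measured counts Fndc1 differed by 1.69 on the log2 scale and was not called (edgeR adjusted p = 0.237). The share of real changes that the test would find was not tested.

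Members, gene lists and tests were chosen with earlier results of these data known. Named are the transgene and Has2, called genes of at least 2 CPM (12 per direction), where fewer passed the genes of smallest p with the same sign in both sexes up to 12, up to 3 members of smallest p per list, and 5 genes of smallest p for each difference. Left out were Y-linked genes, Xist, Tsix, pseudogenes, receptor segments of T and B cells, unnamed IDs, and symbols of the Gm or Rik kind. Some genes that meet this rule are not reported here. Mesothelial genes were added after values were seen. Alternatives were RLE scaling, no filter, DESeq2 1.42.0, a replicate block, robust estimation, only the 12 libraries of 6 months, and each library left out in turn. Added after seeing the data were each like pair summed, and each sex as a contrast of the same fit. The limit of 3 counts covers counting error only, while the SE and SD values also hold the spread between libraries.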

Additional observations from a re-analysis of the deposited data

How the results depend on the processing

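DESeq2 called 52 genes higher and 21 lower between genotypes, 24 for the difference between sexes and 36 for that between ages. With the replicate number as a block, 0 genes were called higher and 0 lower, and the transgene had a value of 3.43 and an adjusted p of 0.313. At 6 months same-numbered libraries of the 2 genotypes correlated above 0.1 in 2 of 6 pairs, and 2 of 6 matched their own number best. At 24 months the correlations were 0.11 to 0.31, and every nmrHAS2 library matched the CreER library of its own number best. What the numbers stand for is not given in the labels and was not tested. With like pairs summed, 0 genes were called higher. The female contrast of the main fit gave 0 higher, and the male contrast 3 higher and 1 lower. Leaving out 1 library at a time gave 0 to 6 genes higher, 0 to 1 lower, 0 to 2 for the sex difference and 0 to 12 for the age difference. Counts higher and lower were 1 and 0 with RLE scaling, without a filter, with robust estimation and with only the libraries of 6 months. Of 82 named genes, 2 changed sign in any setting: Mpo was at -0.36 without male nmrHAS2 3 and ran from there to 0.93 over the libraries left out, and Alb was at -0.12 without female nmrHAS2 1 and ran to 1.91. DESeq2 called 26 of the 81 for which it gave an adjusted p, against 0.249% higher and 0.101% lower of all genes. Most named genes were chosen for a small edgeR p on the same counts, so these counts are no independent check. Beside the transgene, 5 named genes were called when 1 library was left out: Adamtsl1, Fndc1 and Aebp1 without male nmrHAS2 2, Zc3hav1l without male CreER 2 and Slc7a1 without male nmrHAS2 1. The medians of 12 of 41 lists changed sign without 1 library. With 3 libraries per sex and genotype, and male depths below those of females, genes of a few counts, such as Has1 and Wnt2b, allow no fold. The cause of these changes was not tested.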

Other observations

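Immunoglobulin V segments, left out of the named genes because each library holds its own clones, had mostly negative differences. Of 202 segments tested, 170 were lower in nmrHAS2 and 32 higher, while 52.7% of all genes had a positive difference. The median log2 difference of the segments was -0.68, with a median SE of 0.62 against 0.21 for all genes. At an unadjusted edgeR p under 0.05 stood 44 segments, 41 lower and 3 higher, against 5.31% lower and 7.45% higher of all genes. After adjustment 0 were called by edgeR. Female nmrHAS2 1 and 2 share their V segment profile (correlation 0.994), which limits what these counts show. Plasma cell genes had a negative median too, given above.

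Cholesterol synthesis genes had 17 of 23 negative differences (median -0.13), 5 of them at an unadjusted p under 0.05 against 5.31% of all genes, with Cyp51, lanosterol demethylase, at 24.7, 26.5 and 22.4 against 33.9, 39.5 and 24.4 CPM in females and 34.9, 23.2 and 25.7 against 38.6, 32.7 and 41.9 CPM in males (-0.42 ± 0.15). Oxidative phosphorylation genes had 28 of 36 negative differences (median -0.10), 2 of them at an unadjusted p under 0.05. The senescence and cell cycle arrest list was divided, 10 positive and 9 negative, 3 of the latter at an unadjusted p under 0.05, and Cdkn2a, which encodes p16 and p19Arf, was at 0.782, 1.2 and 1.35 against 1.59, 2.08 and 0.943 CPM in females and 0.433, 0.459 and 0.469 against 1.11, 0.943 and 1.55 CPM in males (-0.93 ± 0.39, adjusted p = 0.353). Npas2, a partner of Bmal1 in the daily clock, differed by 1.21 ± 0.49, opposite to Dbp. Gclc, of glutathione synthesis, differed by 0.65 ± 0.30, and Vwf, of platelets and endothelium, by 0.65 ± 0.31, and both were highest in male nmrHAS2 3 among males, the library with the highest erythroid median.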
